A study of Homo sapiens with 8 samples.

Results

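A set of 240 genes with clone-derived, LINC, antisense or host gene names is described here, and they carry 310 of the 4626 features that the authors' deposited table of decitabine against DMSO lists. The table lists 3114 gene names in all. The genes were chosen by name alone. Clone-named genes carry the accession-like label of the genomic clone in which they were annotated, such as AC138932.1, and numbered 183 with 229 features. Long intergenic noncoding RNA genes with a LINC number were 21 with 33 features. Genes named after a neighbour with the suffix AS (antisense) or DT (divergent transcript) were 32 with 40 features, of which 23 genes had AS and 9 had DT. The host genes of small nucleolar RNAs (SNHG) or microRNAs (MIR...HG) were 4 with 8 features. The rule removed no gene for a ZNF name and no feature on chromosome Y.

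HL-60, an established human promyelocytic leukaemia line of wild-type genotype, was given decitabine at the start, after 24 hours and after 48 hours, to 100 nM each time, or the vehicle DMSO, and RNA was collected at 72 hours. N6-methyladenosine (m6A) was measured by methylated RNA immunoprecipitation and sequencing, with 2 cultures per treatment and an input and an immunoprecipitate library from each, 8 libraries in all. The labels call the cultures duplicates and say no more about them. Each feature in the table is a short stretch of RNA, 50 nt long for 305 of the 310 features here, with a single log ratio and p-value over both arms. No value per library is in the table, so no ratio has an error or a replicate count, library depth is unknown, and no test was added. The sign has no stated direction, and positive probably means more in decitabine than in DMSO. The correction for input is not given, so a change in m6A per transcript, in the amount of the RNA, or in the share of cells that make it cannot be told apart. Every listed feature had already passed a threshold, and how many were tested is not known.

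Decitabine is a deoxycytidine analogue that is built into DNA and traps DNA methyltransferases, so that cytosine methylation is lost as cells divide. Many long noncoding and antisense RNAs start at CpG-rich promoters shared with a neighbouring gene or in repeat-derived sequence that DNA methylation keeps silent. Many are also unstable and stay in the nucleus, where the exosome and its adaptors degrade them. m6A is placed by the METTL3-METTL14 methyltransferase at a core of 5 bases, most often in long exons and near stop codons, and noncoding RNAs carry it too. Clone-named genes are annotation models, and a number of them are readthrough or alternative transcripts of a named gene.

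The sequence under the feature could be read for 5 member features that lie in RefSeq promoter windows (GRCh38.p14, from 250 bases before to 50 bases after an annotated start, chromosomes 8 and Y left out). They are shown because they are the RNA stretches to which a ratio was assigned, and because most lie just upstream of a gene on the other strand. Capitals mark the m6A core, searched on the feature's strand as the 12 words NNACN of 5 letters whose first and second letters are A or G and whose last is A, C or T, with any overlap counted. Each sequence is the strand of the feature, 5′ to 3′.
AC010522.1: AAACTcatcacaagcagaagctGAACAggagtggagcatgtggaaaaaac
AC015813.5: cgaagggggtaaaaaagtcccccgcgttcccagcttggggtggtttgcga
MZF1-AS1: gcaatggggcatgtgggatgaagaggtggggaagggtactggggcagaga
TMPO-AS1: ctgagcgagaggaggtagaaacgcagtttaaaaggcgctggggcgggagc
AC138932.1: gagcccaagcacgagcggcagcgccgagc

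The first 4 are whole features of 50 bases and the last is the 29 bases of an AC138932.1 feature that the window covers. They lie at chr19:57858747-57858796 (plus strand), chr17:58007406-58007455 (plus), chr19:58573701-58573750 (plus), chr12:98515441-98515490 (minus) and chr16:14927234-14927262 (plus). AC015813.5 runs away from SRSF1, a splicing factor, with its middle 184 nt upstream of the SRSF1 start, and the authors' deposited table gives it a positive 175-fold ratio. The MZF1-AS1 feature has its middle 152 nt upstream of the start of MZF1, a zinc finger transcription factor of myeloid cells. This feature lies 14515 nt from the start of MZF1-AS1 itself and is positive at 201-fold per the authors' deposited table. The TMPO-AS1 feature has its middle 108 nt upstream of the TMPO start and is positive at 3.98-fold per the authors' deposited table. AC010522.1, positive at 2.26-fold per the authors' deposited table, was the single one of the 5 with a core match, and it has 2. By the same search 8 of 16 other listed features that could be read held a match (50%). So did 40.8% of the stretches of 50 bases from the annotated start onward in 34961 promoter windows. These few sequences sit at gene starts and do not represent the members as a whole.

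Positive ratios outnumbered negative ones in all the name classes except the host genes. The authors' deposited table gave 191 of the 310 member features as positive and 119 as negative, that is 61.6% and 38.4%, where 56.3% of all listed features were positive and 43.7% negative. The 95% Wilson interval of the members' positive share ran from 56.1% to 66.9% and covers the counting of features only. Among clone-named features 138 were positive and 91 negative (60.3% positive, interval 53.8% to 66.4%), among LINC features 24 and 9 (72.7%, 55.8% to 84.9%) and among antisense-suffix features 25 and 15 (62.5%, 47.0% to 75.8%). The 3 intervals overlap one another, and each of them, like that of the members as a whole, includes the share of all listed features. Within the antisense class, AS genes had 21 positive and 10 negative features and DT genes 4 and 5. Counted by gene, with each gene represented by its feature of smallest p-value, 150 of 240 member genes were positive (62.5%), beside 58.9% of all listed genes.

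**Figure D1:**
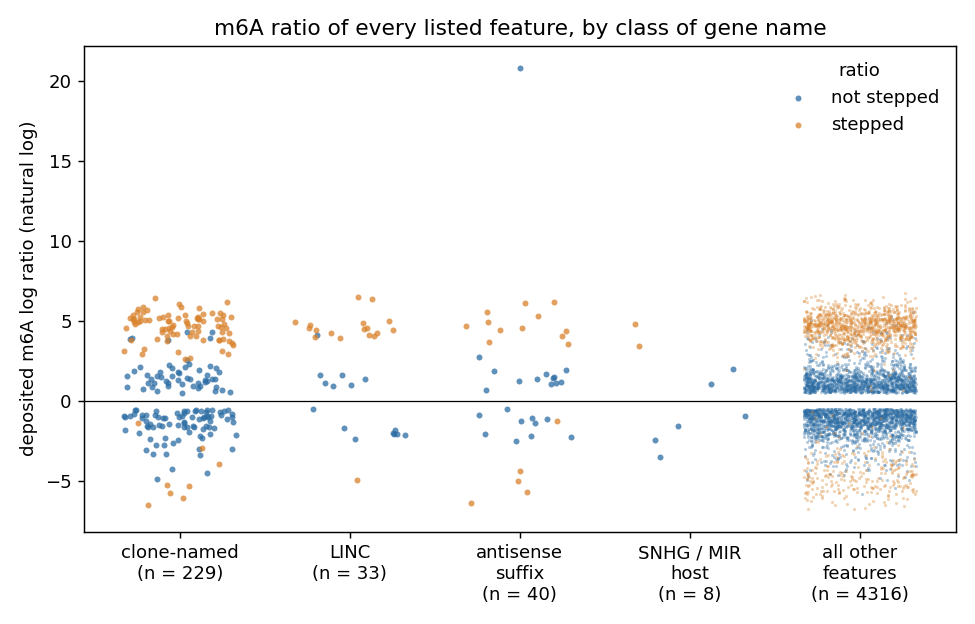
Deposited m6A log ratio (natural log, vertical axis) of every listed feature, by class of gene name (horizontal axis), with stepped ratios, whose exponential is a multiple of 0.5, in orange and all others in blue; side-to-side spread within a class only separates the points. Most points above 3 are stepped in every class, the LINC column holds 24 points above 0 and 9 below, and the single point near 20.81 is L3MBTL2-AS1.

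Large positive ratios took up more of the members than of the whole table. A fold here is the exponential of the size of the deposited natural log ratio. By the authors' deposited table, 126 member features were positive at 10-fold or more (40.6%, beside 28.2% of all listed features) and 31 were negative at 10-fold or more (10%, beside 10.3%). The positive count was 92 of 229 for clone-named (40.2%), 18 of 33 for LINC (54.5%) and 14 of 40 for antisense-suffix features (35%, L3MBTL2-AS1 included). The median positive ratio per the authors' deposited table was 56.0-fold over the members, 50.2-fold for clone-named, 69.8-fold for LINC, 34.0-fold for antisense-suffix and 18.7-fold for host gene features, against 8.81-fold for all other features. The median negative ratio was 4.70-fold over the members and 3.93-fold over all other features per the authors' deposited table. So the positive and negative sides of the members are unlike in size, as they also are, to a lesser degree, in the rest of the table. No test of these differences was made, since features of a list are not replicates of a treatment.

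Large positive ratios were largely stepped ratios, meaning that the fold lies on a whole number of steps of 0.5 (relative tolerance 1e-08). Of the 310 member features, 129 were stepped (41.6%, beside 30.6% of all listed features), 115 of them positive and 14 negative. By class the stepped share was 40.2% for clone-named, 54.5% for LINC and 42.5% for antisense-suffix features. Without stepped ratios the majority of members turned negative, with 76 positive and 105 negative features (41.99% positive), as it did for the rest of the table (45.4% positive). The unstepped counts were 54 and 83 for clone-named features (39.4% positive), 7 and 8 for LINC and 13 and 10 for antisense-suffix features. The median unstepped ratios of the members were close to each other in size, at 4.04-fold positive and 4.10-fold negative, beside 3.27-fold and 3.48-fold in all other features of the authors' deposited table. The sources used here do not say what makes a ratio stepped.

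Most clone-named features lay over a gene of another name. None of the 183 clone names matched a symbol or synonym of the RefSeq table, so these genes have no span or biotype of their own here, and their features were set against the spans of other RefSeq genes (whole spans, since exons were not annotated here). Of the 229 clone-named features 104, in 76 genes, overlapped a protein-coding span on the same strand (45.4%), against 188 of the 4316 features outside the classes (4.36%). These shares are not counted alike. For a matched gene its own span was left out. For a clone-named gene, a RefSeq entry of the same gene under another name would count as another gene. A further 37 lay over a noncoding gene or pseudogene of the same strand, 60 over a gene whose strand the tables do not list, 11 over a gene of the opposite strand alone, and 17 over no other gene. With their own spans left out, 27 of 33 LINC features and 27 of 40 antisense-suffix features lay over no other gene, and 12 antisense-suffix features over a gene of the opposite strand. The 104 clone-named features over same-strand coding spans were nearly balanced, with 55 positive and 49 negative (52.9% positive) and a median of 4.83-fold per the authors' deposited table. The 17 over no other gene held 13 positive and 4 negative features with a median of 64.0-fold per the authors' deposited table (76.5% positive, Wilson interval 52.7% to 90.4%, which includes the 56.3% of all listed features). Features outside the classes were 65.4% positive with a median of 6.12-fold over another gene's same-strand coding span, and 55.3% positive with a median of 4.89-fold over no other gene.

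Part of this overlap is the same stretch of RNA listed more than once. A feature shared bases, on the same strand, with a feature listed under another gene name for 56 of the 229 clone-named features (24.5%, in 44 genes), for 1 LINC feature and for 1 antisense-suffix feature, against 108 of the 4316 features outside the classes (2.50%). The windows of a pair are offset, and 53 of 58 distinct pairs shared 25 bases or more (median 40.0). Over these 58 pairs the sign was the same in 55 and opposite in 3, and 34 pairs differed by at most 0.1 on the natural log scale (10.5% in the ratio). The reads behind paired features may be shared, which was not tested, and the values of a pair are not independent. The 40 genes outside the classes that were overlapped in this way included 9 with a ZNF name, a count taken after the pairs were seen. The share of ZNF names among all listed genes is not given here, so no excess can be read from this count.

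**Figure D2:**
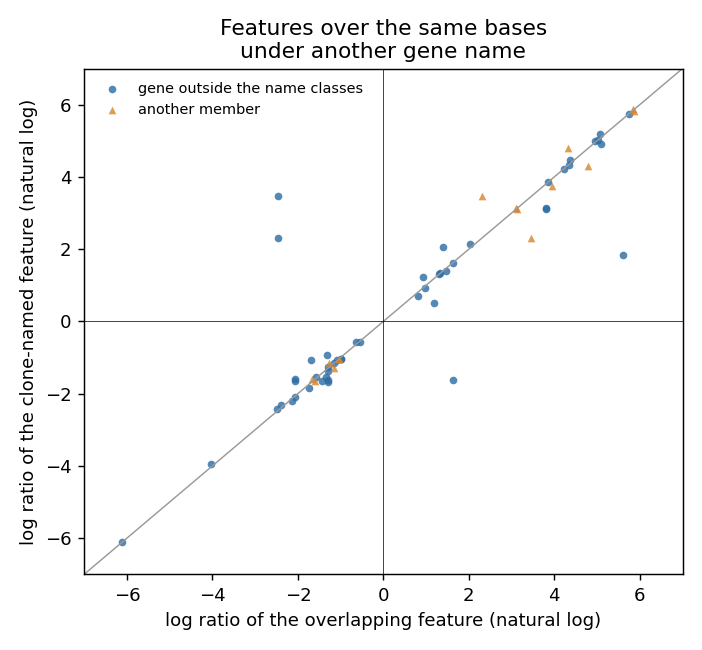
Deposited m6A log ratio (natural log) of each clone-named feature that shares bases with a feature of another name (vertical axis) against that other feature (horizontal axis), with the line of equal values; circles are pairs with a gene outside the name classes and triangles pairs with another member. Most points lie on or beside the line, and the 3 points with opposite signs are AC008770.4 and AC022415.3 against ZNF844 and AC106886.6 against SRCAP.

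The pairs include genes of known function, and the ratio of the clone-named gene followed the known gene closely in most of them. In the authors' deposited table AC027796.3 stood positive at 315-fold (chr17:3609898-3609947, p = 3.3e-09) and SHPK, a kinase of the pentose phosphate pathway, at 313-fold over nearly the same bases. AC093525.2, with the second-largest negative ratio of the clone-named genes at 446-fold, paired with TBC1D24 at 449-fold per the authors' deposited table. AC012184.2 had positive features of 5.07-fold and 3.69-fold per the authors' deposited table, where DDX19A, an RNA helicase of mRNA export, had 5.08-fold and 3.68-fold. Each of these pairs shows the same direction and nearly the same size under both names.

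AC019117.4 was positive at 148-fold beside 141-fold for AHR, the ligand-activated aryl hydrocarbon receptor, per the authors' deposited table. AC073508.2 and SMARCE1, a subunit of the SWI/SNF chromatin remodeller, were negative at 3.18-fold and 3.19-fold per the authors' deposited table. AC046185.1 and STRADA, the pseudokinase that activates LKB1, were negative at 51.5-fold and 56.5-fold per the authors' deposited table. For AC097637.1 the size differed more: its shared feature was negative at 2.93-fold beside 5.44-fold for TLR9, the endosomal receptor for CpG DNA, per the authors' deposited table. The leading feature of AC097637.1, which is not the shared one, was positive at 215-fold per the authors' deposited table. The features of AC005261.3 and ZNF805 shared a sign but not a size, positive at 6.31-fold and 272-fold per the authors' deposited table.

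The 3 opposite pairs came from 2 regions. AC008770.4 and AC022415.3 share bases on chromosome 19 and were positive at 10.1-fold and 32.0-fold, while ZNF844 was negative at 11.6-fold per the authors' deposited table. The ZNF844 feature shares 48 bases with AC008770.4 but only 2 with AC022415.3. AC106886.6 had a 5.08-fold negative feature beside a 5.13-fold positive feature of SRCAP, the ATPase that deposits the histone variant H2A.Z, per the authors' deposited table, and these windows share only 6 bases. So the AC022415.3 and AC106886.6 pairs are adjacent windows, and only the AC008770.4 pair has opposite signs over nearly a whole window. AC106886.6 was also the member with the most features, 7 in all, 4 positive and 3 negative. Of these, 6 lay in the SRCAP span, from 5.08-fold on the negative side to 7.74-fold on the positive side, and the last, in TMEM265, was positive at 87.0-fold beside 79.0-fold for TMEM265 itself per the authors' deposited table.

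Clone-named genes with the smallest p-values on the positive side had stepped ratios. In the authors' deposited table AC073046.1 was positive at 333-fold (chr2:73986003-73986052, plus strand, p = 3.2e-09), and its feature lies in the span of TET3, a dioxygenase that oxidises 5-methylcytosine. AC008770.2 held 177.5-fold and 122-fold features over ZNF700 and ZNF69, and ZNF700 had a 160-fold feature over the same bases per the authors' deposited table. AL671277.2 was positive at 257-fold over POLR1HASP and the HLA-J pseudogene, AC008105.3 at 193.5-fold over FMNL1-DT, and AC084824.2 at 423-fold opposite DNM1L, the GTPase of mitochondrial fission, per the authors' deposited table. AC104446.2 reached 484-fold opposite NEK4 per the authors' deposited table. The features of AC073046.1, AC008770.2 and AC008105.3 run on the strand of the gene they overlap, and those of AC084824.2 and AC104446.2 opposite DNM1L and NEK4. AC084824.2 also lies over LOC100420981 and AC104446.2 over LOC100301990, both of unlisted strand, and both features were counted above under that heading.

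On the negative side the leading clone-named genes by p-value had smaller, unstepped ratios. In the authors' deposited table AC139887.2 was negative at 8.34-fold (chr4:780458-780507, minus strand, p = 1.3e-05), over PCGF3-AS1 and LOC124900163 on the same strand. The AC139887.2 feature was counted above among those over same-strand coding spans. AC004542.6 was negative at 5.39-fold over TUG1, a long noncoding RNA, whose overlapping feature was negative at 3.65-fold per the authors' deposited table. RefSeq lists TUG1 as protein-coding, so the AC004542.6 feature was counted above among those over same-strand coding spans. AP001062.1 was negative at 11.4-fold opposite CFAP410, AL031708.1 negative at 11.2-fold beside 12.1-fold for CRAMP1, and AL669942.1 negative at 7.53-fold per the authors' deposited table. The largest negative ratios were stepped: AC060766.7 at 687-fold, AC093525.2 at 446-fold and AL022069.3 at 328.5-fold per the authors' deposited table.

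Clone-named genes with several features often held both signs. AC020915.1 and AC020915.5 lie over ZNF8 and the ZNF8-ERVK3-1 readthrough on chromosome 19, and their features at the ZNF8 end were negative at 2.81-fold and 2.82-fold beside 2.71-fold for ZNF8 per the authors' deposited table. Near ERVK3-1, an endogenous retrovirus gene, AC020915.1 had a 3.61-fold negative and a 26.0-fold positive feature and AC020915.5 a 3.20-fold negative and a 4.05-fold positive feature per the authors' deposited table. The remaining AC020915.5 features, in ZNF8, were negative at 4.89-fold and 1.77-fold per the authors' deposited table. AC008764.1, in the span of the Mediator subunit MED26, had negative 2.65-fold and 3.74-fold features and a 4.76-fold positive feature between them per the authors' deposited table. AL121845.3, over ZGPAT and LIME1, was positive at all 3 features, from 1.68-fold to 5.70-fold per the authors' deposited table. AL136982.1 shared its positive 23.0-fold and negative 5.25-fold features with AL136982.4 (22.5-fold and 4.93-fold) and AGAP11 (45.0-fold and 7.90-fold), each pair with the same sign, and had a further positive 37.0-fold feature of its own per the authors' deposited table.

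LINC genes held the smallest p-value of the whole table, and several of them resemble one another in promoter sequence or in the course of their ratios. LINC02591 on chromosome 1 was led by a 134.5-fold positive feature (chr1:143792565-143792664, plus strand, p = 4.0e-17) per the authors' deposited table. Its further features were positive at 148-fold and 4.98-fold and negative at 8.37-fold per the authors' deposited table. LINC01145, on the same chromosome, followed the same course, positive at 71.5-fold (p = 5.2e-09) and 5.07-fold and negative at 8.10-fold, with a further positive 52.5-fold feature toward its 5′ end, per the authors' deposited table. LINC00869 was positive at 86.5-fold and 84.0-fold and negative at 7.76-fold per the authors' deposited table, but all 3 of its features lie outside the RefSeq span of LINC00869, downstream of the promoter shown, and the negative one lies over LOC644634. Measured from the annotated 3′ end the features of LINC02591 lay at 4444, 3445, 2097 and 300 nt and those of LINC01145 at 4467, 2085 and 298 nt, and in all 3 genes the most 3′ feature was the negative one.

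The promoter stretches of LINC01145 (chr1:145216123-145216302, minus strand) and LINC00869 (chr1:149606882-149607061, plus strand) agree at 178 of 180 aligned bases (98.9%). Those of LINC01001 (chr11:131871-132103, minus) and LINC01002 (chr19:202160-202392, minus) agree at 230 of 233 (98.7%). They are shown as RefSeq gives them on GRCh38.p14, 5′ to 3′, because they show how alike the promoters of these members are, and capitals mark the bases that differ within a pair.
LINC01145: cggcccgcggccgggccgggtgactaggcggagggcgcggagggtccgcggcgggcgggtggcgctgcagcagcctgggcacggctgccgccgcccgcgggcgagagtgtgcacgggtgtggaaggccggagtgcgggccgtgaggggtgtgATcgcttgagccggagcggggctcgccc
LINC00869: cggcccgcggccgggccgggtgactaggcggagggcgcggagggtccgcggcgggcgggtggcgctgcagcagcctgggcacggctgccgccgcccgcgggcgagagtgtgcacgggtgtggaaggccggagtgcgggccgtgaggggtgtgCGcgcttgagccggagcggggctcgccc
LINC01001: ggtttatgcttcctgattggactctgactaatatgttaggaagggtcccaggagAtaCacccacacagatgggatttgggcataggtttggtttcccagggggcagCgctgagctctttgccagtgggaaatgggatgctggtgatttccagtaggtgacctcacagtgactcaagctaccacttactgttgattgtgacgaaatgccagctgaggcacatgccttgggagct
LINC01002: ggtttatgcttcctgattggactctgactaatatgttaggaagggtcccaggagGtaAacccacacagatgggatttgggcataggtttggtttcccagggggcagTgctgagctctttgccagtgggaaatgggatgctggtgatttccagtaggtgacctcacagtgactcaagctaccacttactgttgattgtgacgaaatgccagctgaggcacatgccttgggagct

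LINC01001 was positive at 643-fold and LINC01002 at 567-fold, the largest positive ratios of the LINC genes per the authors' deposited table. LINC01001 also held a 94.0-fold positive feature (p = 1.3e-09) per the authors' deposited table. LINC00893 and LINC00894 on chromosome X were positive at 51.5-fold and 56.0-fold per the authors' deposited table, and AC244197.3, over the bases of the LINC00893 feature, at 42-fold. The promoters of LINC00893 and LINC00894 were not aligned. A read can match more than one copy where copies are as alike as the aligned pairs, and the sources used here do not say how such reads were assigned. The ratios of the genes in those pairs are therefore uncertain as values of a single locus, and the groups of alike genes were picked out after the values were seen.

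Clone-named genes of the PKD1 pseudogene region on chromosome 16 formed another group of like ratios. AC138932.1 was positive at 160-fold, 75.5-fold and 631-fold along its length, the last (chr16:14927213-14927262, plus strand, p = 4.0e-07) being the largest positive ratio of a clone-named gene per the authors' deposited table. AC138969.3 was positive at 163-fold, 77.0-fold and 213-fold per the authors' deposited table. AC138969.1 had 135-fold and 68.5-fold, PKD1P1 163-fold and 68.0-fold, and NPIPA1 76.5-fold, all positive, per the authors' deposited table. The distance from the first to the second of these features was 4917, 4919, 4961 and 4912 nt in AC138932.1, AC138969.3, AC138969.1 and PKD1P1. Every listed feature of the group was stepped and positive. The AC138969.1 features share 30 and 21 bases with those of PKD1P1, and the 75.5-fold AC138932.1 feature shares 41 with that of NPIPA1. Those values are therefore not independent. Reads may also match more than one gene of this group, which was not tested, so its ratios are uncertain as to locus.

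**Figure D3:**
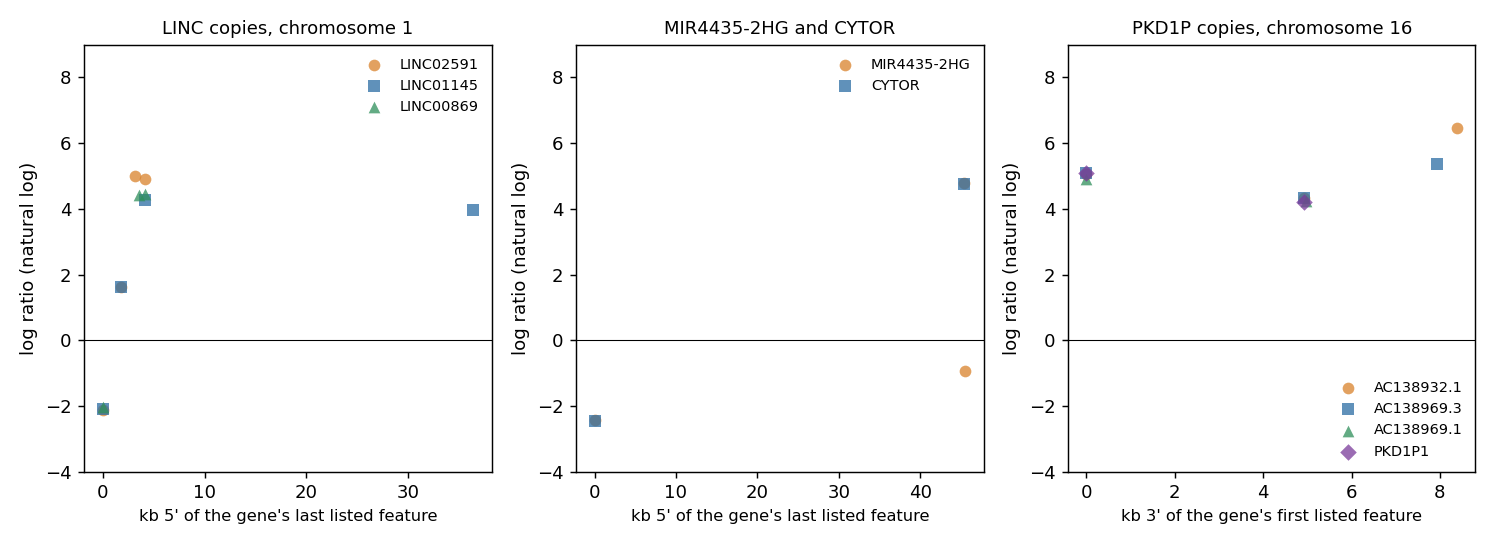
Deposited m6A log ratio (natural log, vertical axis) of each listed feature in 3 groups of alike genes, against distance in kb from the gene's most 3′ listed feature (left and middle) or its most 5′ one (right). Many features of different genes fall at nearly the same distance and height, such as the negative feature at 0 kb of LINC02591, LINC01145 and LINC00869. Features without such a counterpart include the LINC01145 feature farthest from 0 kb and the negative MIR4435-2HG feature at the right. The LINC02591 feature at 3145 nt and the LINC00869 feature at 3603 nt have none either. In the right panel the last features of AC138932.1 and AC138969.3 lie apart, at 8384 and 7939 nt.

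LINC genes outside these groups were listed with both signs. LINC00863 was led by a 97.0-fold positive feature (p = 2.5e-06) and LINC02245 by a 117-fold positive one per the authors' deposited table. LINC00294 was negative at 143-fold (p = 6.6e-05), LINC00623 negative at 11.1-fold, LINC00680 negative at 7.34-fold and LINC00667 negative at 6.36-fold per the authors' deposited table. LINC00665 had a 1.71-fold negative and a 127-fold positive feature and LINC00926 a 5.55-fold negative and a 3.86-fold positive feature per the authors' deposited table. The 2 LINC00926 features lay 297 and 496 nt from the annotated start. Of the 7 LINC genes with several features, 5 held both signs, 2 were positive throughout and none was negative throughout.

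Antisense-suffix genes could be set beside the gene they are named after for 11 of 32 genes (34.4%, Wilson interval 20.4% to 51.7%), since that partner gene was also listed. The leading features had the same sign in 6 pairs and opposite signs in 5. By leading feature 8 of the 11 partners were positive, where 58.9% of all listed genes were, and no excess is read from so few genes. Both genes of a pair come from the same table and the same libraries, so the values share their sources, and no test of the agreement was made. The leading antisense feature lay within 2000 nt of the partner's start in 7 of the 31 genes whose partner has a RefSeq entry.

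**Figure D4:**
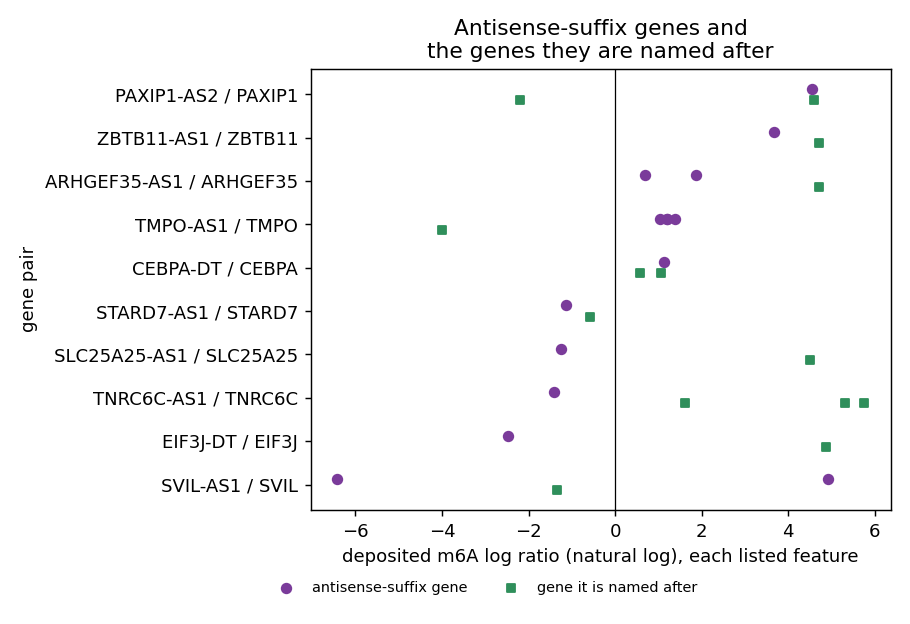
Deposited m6A log ratio (natural log, horizontal axis) of every listed feature of 10 of the 11 antisense-suffix genes with a listed partner (circles) and of the genes they are named after (squares), 1 pair a row. TMPO-AS1 has 4 circles between 1.03 and 1.38 with the TMPO square at -4.002, and EIF3J-DT, SLC25A25-AS1 and TNRC6C-AS1 have a negative circle with positive squares.

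TMPO-AS1, which starts 636 nt from the TMPO start on the other strand and runs across it (TMPO encodes the lamina-associated polypeptide of the nuclear envelope), was the antisense gene with the most features. Its 4 features were positive at 3.33-fold, 3.35-fold, 3.98-fold and 2.80-fold per the authors' deposited table, all unstepped. TMPO was listed once, negative at 54.7-fold, with its feature 289 nt from its own start, per the authors' deposited table. The antisense gene was thus positive throughout and the coding gene negative, within less than 1000 nt of each other.

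EIF3J-DT was negative at 12.0-fold and EIF3J, a factor bound to the translation initiation complex eIF3, positive at 131-fold per the authors' deposited table. SLC25A25-AS1 was negative at 3.50-fold and SLC25A25, a mitochondrial ATP carrier, positive at 91.0-fold per the authors' deposited table. TNRC6C-AS1 was negative at 4.10-fold, while TNRC6C, a protein of microRNA silencing, had positive features of 204-fold, 315-fold and 4.98-fold per the authors' deposited table. The TNRC6C-AS1 feature lies on the bases of a TMC6 feature of the same strand, negative at 4.06-fold per the authors' deposited table, so it may be read as either gene. The name TNRC6C-AS1 matched RefSeq by synonym alone, and no other gene span was found over its feature. The matched entry therefore appears to be that of TMC6. Its overlap, place and promoter, counted in the antisense class, would then be those of TMC6.

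In the pairs of equal sign, CEBPA-DT was positive at 3.10-fold and CEBPA, the transcription factor of myeloid differentiation, positive at 1.78-fold and 2.87-fold per the authors' deposited table. The CEBPA-DT feature (chr19:33304755-33304804, plus strand) had its middle 2245 nt upstream of the CEBPA start and lay 253 nt from the 3′ end of CEBPA-DT. PAXIP1-AS2 was positive at 94.0-fold and PAXIP1, a subunit of histone H3K4 methyltransferase complexes, positive at 99.5-fold and negative at 8.99-fold per the authors' deposited table. ZBTB11-AS1 and ZBTB11, a zinc finger transcription factor, were positive at 39.0-fold and 111-fold, and ARHGEF35-AS1 and ARHGEF35 positive at 6.44-fold and 110.5-fold, per the authors' deposited table. The ZBTB11-AS1 feature also lies over LOC124906262, a protein-coding span of the same strand.

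STARD7-AS1 and STARD7, a phosphatidylcholine transfer protein, were negative at 3.12-fold and 1.78-fold per the authors' deposited table. SVIL-AS1 held a 615-fold negative and a 138-fold positive feature only 150 nt apart, and SVIL, an actin-binding protein, a 3.84-fold negative feature per the authors' deposited table. The sign of the SVIL-AS1 pair therefore depends on which of its features represents it. The promoter windows of ARHGEF35-AS1 and OR2A1-AS1, the latter not listed, agree at 300 of 300 bases, so the ARHGEF35-AS1 ratio is also uncertain as to locus.

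Among antisense-suffix genes whose partner was not listed, the smallest p-values were on the positive side. FGD5-AS1 had positive features of 475-fold (chr3:14945536-14945585, minus strand, p = 4.6e-08) and 7.06-fold per the authors' deposited table. UBE2D3-AS1, opposite the ubiquitin-conjugating enzyme gene UBE2D3, was positive at 457-fold, MAPKAPK5-AS1 at 107-fold, NCK1-DT at 85.5-fold and CEP83-DT at 265-fold per the authors' deposited table. On the negative side CCDC84-DT was at 154-fold, GARS1-DT at 80.5-fold and GMDS-DT at 3.02-fold per the authors' deposited table. NOP14-AS1 changed sign along its length, from a 9.43-fold negative feature 132 nt from its start to positive ones of 4.24-fold at 481 nt and 15.1-fold at 2173 nt, per the authors' deposited table.

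All 4 host genes had unstepped leading features, from 2.78-fold to 11.4-fold in size per the authors' deposited table. SNHG14, the long host RNA of the imprinted Prader-Willi region, was led by a 7.37-fold positive feature (p = 1.2e-05) and held a 30-fold positive and a 32.6-fold negative feature 100 nt apart per the authors' deposited table. SNHG29 was negative at 4.90-fold, at a feature over LRRC75A outside the SNHG29 span, and SNHG10 positive at 2.78-fold per the authors' deposited table. MIR4435-2HG was led by an 11.4-fold negative feature (p = 4.4e-05) and held a 120-fold positive and a 2.55-fold negative feature per the authors' deposited table. CYTOR, its copy elsewhere on chromosome 2, was negative at 11.6-fold and positive at 117-fold per the authors' deposited table, with the positive and negative features 45352 nt apart, against 45359 nt in MIR4435-2HG. Reads may match both copies, which was not tested, so the ratios of MIR4435-2HG and CYTOR are uncertain as to locus.

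The promoter stretches of the 2 genes, MIR4435-2HG at chr2:111495112-111495352 (minus strand) and CYTOR at chr2:87455177-87455417 (plus strand), are identical over 241 of 241 bases in RefSeq on GRCh38.p14. The sequence is shown once, 5′ to 3′ and without capitals because no base differs, since it shows how alike both loci are.
MIR4435-2HG: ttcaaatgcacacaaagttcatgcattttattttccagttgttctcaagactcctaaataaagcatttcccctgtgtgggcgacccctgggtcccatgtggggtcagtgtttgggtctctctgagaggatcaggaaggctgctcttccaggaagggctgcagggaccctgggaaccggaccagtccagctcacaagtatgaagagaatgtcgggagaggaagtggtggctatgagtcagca

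Features of LINC and antisense-suffix genes were spread along the gene, whereas those of the other genes lay toward the 3′ end. Place could be read for 72 member features inside the RefSeq span of their own gene, none of them clone-named, and 9 of the 81 LINC, antisense-suffix and host gene features lay outside that span, the leading features of LINC02245, CCDC84-DT and PAXIP1-AS2 among them. The median place was 42.8% of the span from the 5′ end (quartiles 18.7% and 89.1%) over the members, 45.0% for 27 LINC features and 45.5% for 38 antisense-suffix features, against 82.0% for 4240 features outside the classes (quartiles 49.9% and 95.01%). The last 25% of the span held 25 of the 72 member features (34.7%) and 2454 of the 4240 others (57.9%). DT genes were closer to the others, with a median place of 83.3% over 8 features. Spans include introns and differ in length, with a median of 13527 nt for the members' features and 36809 nt for the others'. The median distance to the 3′ end was 3399 nt and 4027 nt, and no test of the difference was made.

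**Figure D5:**
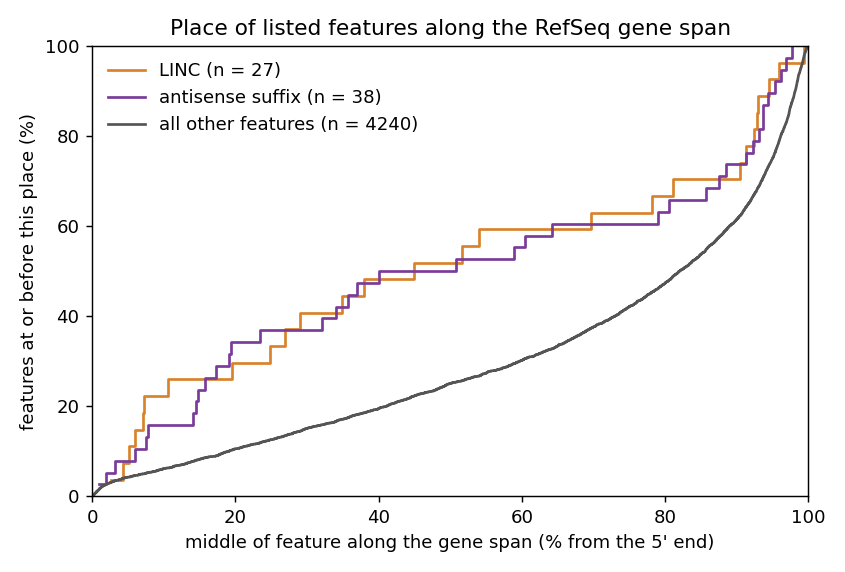
Share of listed features at or before each place along the RefSeq gene span (vertical axis, %), against that place in % from the 5′ end (horizontal axis), for 27 LINC, 38 antisense-suffix and 4240 other features. The LINC and antisense lines rise near the 5′ end and again past 90%, while the line of other features rises mostly in the last 25%.

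Opposite signs within a gene were frequent among the members and in the rest of the table. Of the 46 member genes with several features 23 held both signs, 16 were positive throughout and 7 negative throughout, while 529 of 901 other genes with several features held both signs. By class both signs were held by 14 of 32 clone-named, 5 of 7 LINC, 2 of 5 antisense-suffix and 2 of 2 host genes. Features written as several blocks, as a stretch across a splice junction is, numbered 20 among the members (6.45%, beside 4.19% of all listed features), 16 of them clone-named. The largest of these per the authors' deposited table was AC126755.7 positive at 343-fold, over the same bases as AC126755.1 at 356-fold.

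Members whose promoters could be read had CpG-rich starts in the antisense class and poorer ones in the LINC class. The median number of CpG dinucleotides in the 300-base window was 24.5 over 30 antisense-suffix promoters and 13 over 16 LINC promoters, beside 27.0 over 2287 promoters of other listed genes and 14.0 over 27195 RefSeq genes. Promoters on chromosomes 8 and Y were left out of all these counts. A start on the opposite strand lay within 1000 nt for 23 of 30 antisense-suffix genes, 16 of them divergent, and for 6 of 16 LINC genes, 5 of them divergent. The name of an antisense or divergent gene already implies such a neighbour, so these counts describe the class and are no finding about treatment.

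Few of the well-known long noncoding RNAs were listed. Of a list of 27, 4 were in the authors' deposited table, by leading feature 1 positive and 3 negative. TUG1 had positive features of 83.0-fold and 3.71-fold and negative ones of 3.65-fold, 8.55-fold and 3.22-fold, and NORAD, which binds PUMILIO proteins, a 2.82-fold negative feature per the authors' deposited table. PSMB8-AS1 was negative at 3.47-fold per the authors' deposited table, and CYTOR is given above. MALAT1, NEAT1, GAS5, PVT1 and OIP5-AS1 were among the 23 not listed, which says only that the table holds no feature under those names.

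Of 24 genes of nuclear RNA turnover, the machinery that degrades unstable antisense and divergent transcripts, 7 were listed, by leading feature 3 positive and 4 negative. ZFC3H1, the scaffold of the nuclear exosome's poly(A) tail connection, had positive features of 3.42-fold and 74.5-fold per the authors' deposited table. NCBP2, the smaller subunit of the nuclear cap-binding complex, had positive features of 96.4-fold, 2.26-fold, 1.92-fold and 2.26-fold and a 2.59-fold negative one per the authors' deposited table. The exosome subunit EXOSC3 was negative at 3.85-fold, RBM7 of the nuclear exosome targeting complex negative at 2.25-fold and YTHDC1, the nuclear m6A reader, negative at 1.86-fold per the authors' deposited table. ZC3H4, which restricts unproductive transcription, was negative at 2.10-fold, 1.71-fold and 77.6-fold, and its partner WDR82 positive at 2.15-fold per the authors' deposited table. The share of positive genes in both lists, 1 of 4 and 3 of 7, is to be read against 58.9% of all listed genes. The identity of the cells could not be checked, because the table gives no expression levels: of the marker lists 1 of 7 myeloid, 0 of 3 lymphoid and 0 of 2 erythroid genes were listed.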

How the data were processed

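The authors deposited 1 table that compares m6A between decitabine-treated and DMSO-treated HL-60 cells, which was the only data file used. The submitters' processing notes name STAR 2.7.3a and build hg38. For the peak caller, the correction for input and library size, the handling of reads that match several places and the way replicates were combined, the method was not given in the sources used here. Per the file headers the deposited table gives, for each feature, its place and strand, a gene with its Ensembl number, a log ratio and a p-value. The deposited log ratio was taken for a natural log: on that reading 1415 folds lie on steps of 0.5 (relative tolerance 1e-08), and on a log2 reading 0 do. The p-value the authors deposited is not marked as adjusted. The table holds no value per library, so depth is unknown and no replicate fit was made; the planned fits per library were not run.

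Members were picked by the name patterns, and signs, sizes and shares were counted beside all listed features. Names matched the RefSeq table (GRCh38.p14) by symbol for 51 member genes and by synonym for 6, with 183 clone-named genes unmatched. Shared bases needed an overlap of blocks on the same strand. Named were, per class, up to 6 genes of each sign with the smallest p, the 3 largest ratios of each sign, genes with 3 or more features, host genes, antisense genes with a listed partner, and a few in any case; other genes named were chosen after their values were seen. One gene that the rule names is not reported here. The members and lists were chosen with earlier results of these data known. Scripts were tested on simulated data. The scripts ran on Python 3.11.15 with matplotlib 3.10.9, scipy 1.17.1, numpy 2.4.6 and pandas 2.3.3.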

Additional observations from a re-analysis of the deposited data

How the results depend on the processing

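No paired analysis was possible because the deposited table holds no values per library, and leaving out a replicate was not run for the same reason. Without stepped ratios the positive share was 41.99% of member features, 40.0% of member genes, 39.4% of clone-named, 46.7% of LINC and 56.5% of antisense-suffix features, and the share at 10-fold or more fell from 50.6% to 16.6%. Without features over another gene span the positive share was 67.9% of member features and 76.5% of clone-named ones (13 of 17 features). With p at or below 0.001 it was 78.3% of antisense-suffix features, and 60.0% of member features were at 10-fold or more. All listed features were 45.3% positive without stepped ratios, and 38.5% of them were at 10-fold or more before any filter. Their shares at p at or below 0.001, and at 10-fold or more without stepped ratios or on a log2 reading, are not given here. The members' shares under those settings therefore have no background beside them. Read as log2 the deposited ratio put 42.6% at 10-fold or more. With any listed opposite-strand gene within 10 kb in place of the named partner, 5 of 32 antisense-suffix genes had a partner (15.6%). Leaving out features over the same bases as another gene's feature, chosen after seeing the data, gave positive shares of 63.9% for member features, 63.0% for clone-named, 71.9% for LINC and 64.1% for antisense-suffix features, all within the interval of the share with them. The median place along the gene was 40.1% with symbol matches alone and 42.7% without stepped ratios. The causes of these shifts were not tested.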

Other observations

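L3MBTL2-AS1, antisense to the chromatin protein gene L3MBTL2, had a deposited log ratio of 20.81 (chr22:41209637-41209686, minus strand, p = 0.00027), far above every other value of the authors' deposited table, and no fold is given for it. It is counted among the positive antisense-suffix features of 10-fold or more, and without it that count was 13 and their median positive ratio 24.5-fold in place of 34.0-fold. The clone-named features over no other RefSeq gene include AC009962.1 positive at 221-fold, AC102953.2 positive at 193-fold (p = 1.3e-07) and AL353807.3 positive at 208-fold per the authors' deposited table. AC118758.3, also over no other gene, had a 64.0-fold positive and a 193-fold negative feature on chromosome 7 per the authors' deposited table. Chromosome 19 held 38 of the 310 member features (12.3%) and 10.9% of the features outside the classes.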
